A study of Mus musculus with 15 samples.

Results

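The genes described here are 10 cytokine and cytokine receptor genes of mouse LL2 lung cancer cells, taken by symbol from the expression table: the interleukin-1 (IL-1) family genes *Il33*, *Il18*, *Il36g*, *Il1rn* and *Il1rl1*, the IL-6 family genes *Il6*, *Il11* and *Lif*, and *Il7r* and *Il23a*. All 10 were among the 35880 genes of the table, and 9 passed the filter on low values that left 14652 genes for testing. *Il6* did not pass, with a sum of 1.46 CPM (read counts scaled to the library total) over the 15 samples. LL2 (Lewis lung carcinoma) is a mouse lung cancer cell line, and the LL2/Luc2 cells were used as the uncloned wild-type parent (LL2 WT) and after CRISPR editing. *KEAP1* KO #1, #2 and #3 were each grown from a single cell edited at *Keap1*, and *NRF2* KO from a single cell edited at *Nfe2l2*, the gene for NRF2. Each of the 5 lines was cultured in the same serum-containing medium with no treatment and sequenced as 3 biologic replicates. Every knockout is thus compared through samples of 1 clone, so the effect of the edited gene and that of the clone cannot be told apart within a line, and p-values measure the spread between samples of the same line.

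IL-1 family ligands are made by many cell types, epithelial cells among them, and act through paired receptor chains, with IL1RAP as the accessory chain for IL-1, IL-33 and IL-36 and IL18RAP for IL-18. IL-33 is a nuclear alarmin released from damaged cells that acts on ST2 (the product of *Il1rl1*), IL-18 is cut to its active form by caspase-1, IL-36γ (*Il36g*) is an epithelial cytokine acting through *Il1rl2*, and the IL-1 receptor antagonist (*Il1rn*) blocks *Il1r1*. IL-6, IL-11 and LIF signal through the shared chain gp130 (*Il6st*) to STAT3, IL-7 receptor alpha (*Il7r*) serves both IL-7 and TSLP, and IL-23 p19 (*Il23a*) needs the p40 chain *Il12b* to form the cytokine. KEAP1 holds the transcription factor NRF2 in check, and NRF2 drives antioxidant genes such as *Nqo1*.

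The edited genes and the NRF2 target *Nqo1* were read first, as a check of the labels. Mean *Keap1* was 23.0 CPM in the parental line, 11.8, 5.53 and 5.58 CPM in clones #1, #2 and #3 and 22.7 CPM in *NRF2* KO, and mean *Nqo1* was 30.3, 476, 276, 488 and 9.82 CPM in the same order. Mean *Nfe2l2* was 186 CPM in the parental line, 96.4, 123.2 and 116 CPM in the 3 clones and 119 CPM in *NRF2* KO. The transcript level of an edited gene is no measure of its protein. Of the 11 lung epithelial and carcinoma markers, *Krt8* and *Krt18* averaged above 1 CPM in every line, and *Krt19* in all but *NRF2* KO. The means of 6, 5, 5, 6 and 6 of them were at or under 0.1 CPM in LL2 WT, clones #1, #2 and #3 and *NRF2* KO. *Scgb1a1* was at 0 in all 15 samples, and *Cldn4* and *Nkx2-1* were at 0 in all LL2 WT samples. Of the 5 tested only *Sftpb* passed, higher in the 3 *KEAP1* KO clones. In #1 that call did not hold when LL2 WT replicate 1 was left out (adjusted p = 0.0616), nor without clone #1 replicate 2 or 3 (adjusted p = 0.0686 and 0.0577). The 18 leukocyte markers summed to between 12.8 and 44.2 CPM in any sample, with *Adgre1* and *Ncr1* at 0 in all of them. Counting error at these depths was expressed as a floor of 0.1 CPM, which stands for 3 reads at the average depth the study states. The depth of each sample is unknown, since the table holds scaled values only.

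Promoter sequences are shown for the 3 genes that passed the test in one direction in every *KEAP1* KO clone: *Il36g* and *Il1rn*, which were higher, and *Il33*, which was lower. They are the 250 bases before a RefSeq transcript start on GRCm38.p6, all on the plus strand, at chr2:24186226-24186475 for *Il36g*, chr2:24336610-24336859 for the first listed start of *Il1rn* and chr19:29924863-29925112 for the first listed start of *Il33*, and capitals mark matches to the motifs named next.
Il36g: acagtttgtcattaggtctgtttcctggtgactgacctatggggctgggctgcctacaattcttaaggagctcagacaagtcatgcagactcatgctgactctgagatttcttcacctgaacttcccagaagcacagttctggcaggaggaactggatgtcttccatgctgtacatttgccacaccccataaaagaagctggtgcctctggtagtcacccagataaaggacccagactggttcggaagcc
Il1rn: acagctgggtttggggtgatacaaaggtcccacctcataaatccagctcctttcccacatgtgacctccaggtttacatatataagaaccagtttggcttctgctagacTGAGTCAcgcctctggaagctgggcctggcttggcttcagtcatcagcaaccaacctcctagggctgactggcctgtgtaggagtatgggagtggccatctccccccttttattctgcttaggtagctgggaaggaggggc
Il33: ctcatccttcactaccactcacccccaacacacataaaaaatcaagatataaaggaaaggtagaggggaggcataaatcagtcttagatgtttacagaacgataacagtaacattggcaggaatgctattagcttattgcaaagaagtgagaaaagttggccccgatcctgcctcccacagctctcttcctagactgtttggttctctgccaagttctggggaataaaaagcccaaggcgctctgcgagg

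Motifs were searched on both strands from 250 bases before to 50 bases after each start, and 9 of the 10 genes had an entry, all but *Il23a*. The motifs, chosen after the expression values were known, were TGACNNNGC (the core of the antioxidant response element), TGANTCA (AP-1) and an NF-kB site (GGG and TTCC set 3 bases apart). The letters of the antioxidant core and of AP-1 can overlap. Of all 32851 promoters, 12.4% held the antioxidant core, 7.81% the AP-1 letters and 5.56% the NF-kB letters. The *Il36g* window and both *Il33* windows held none of the 3 motifs. In the first *Il1rn* window an AP-1 match began at -141 from the start and an NF-kB match at -4, which runs past the start and is therefore not in capitals. The antioxidant core was found in the second *Il1rl1* window at -88 and in the *Lif* window at -241. The *Lif* window also held an AP-1 match at -228. *Il6* held an AP-1 match near the far end of its window and an NF-kB match at -44, the second *Il11* window an AP-1 match at -98, and *Il18* and *Il7r* none. A match is a description of the letters, and a window without one says nothing about binding elsewhere.

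The questions asked of the genes were how they differ between each knockout line and the parental line, between the *KEAP1* KO clones and *NRF2* KO, and among the 3 *KEAP1* KO clones. All tests were limma tests on log2(CPM + 0.1) with Benjamini-Hochberg adjustment over the 14652 genes, and a gene passed where its adjusted p was under 0.05 and its log2 fold change was above 1 or below -1. Fold changes are on the log2(CPM + 0.1) scale, which understates those of genes at low levels. In *KEAP1* KO #1, 3 genes rose (*Il36g*, *Il1rn*, *Il1rl1*) and 2 fell (*Il33*, *Il11*), where 8.54% of all genes tested passed, 4.55% higher and 3.99% lower. In *KEAP1* KO #2, 3 rose (*Il36g*, *Il1rn*, *Il7r*) and 3 fell (*Il33*, *Il18*, *Il1rl1*), against 13.7% of all genes, 5.94% higher and 7.75% lower. In *KEAP1* KO #3 the same 3 rose as in #2 and 2 fell (*Il33*, *Il18*), against 13.4% of all genes, 6.09% higher and 7.34% lower. In *NRF2* KO, limma called 0 of the 9, with 2 at an unadjusted p under 0.05 (*Il33* and *Il23a*), against 0.464% of all genes, 0.0887% higher and 0.375% lower. These 4 comparisons share the LL2 WT samples. *Il1rn* and *Il7r* averaged under 0.1 CPM in LL2 WT and *NRF2* KO and passed the filter on low values only through *KEAP1* KO samples. Against LL2 WT these genes could therefore pass only as higher, which limits what the counts of genes that rose can show. The median log2 fold change of the 9 genes was 0.33, -0.13, 0.54 and -0.29 in the 4 lines, and that of all genes 0.11, 0.03, 0.02 and 0.04.

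**Figure D1:**
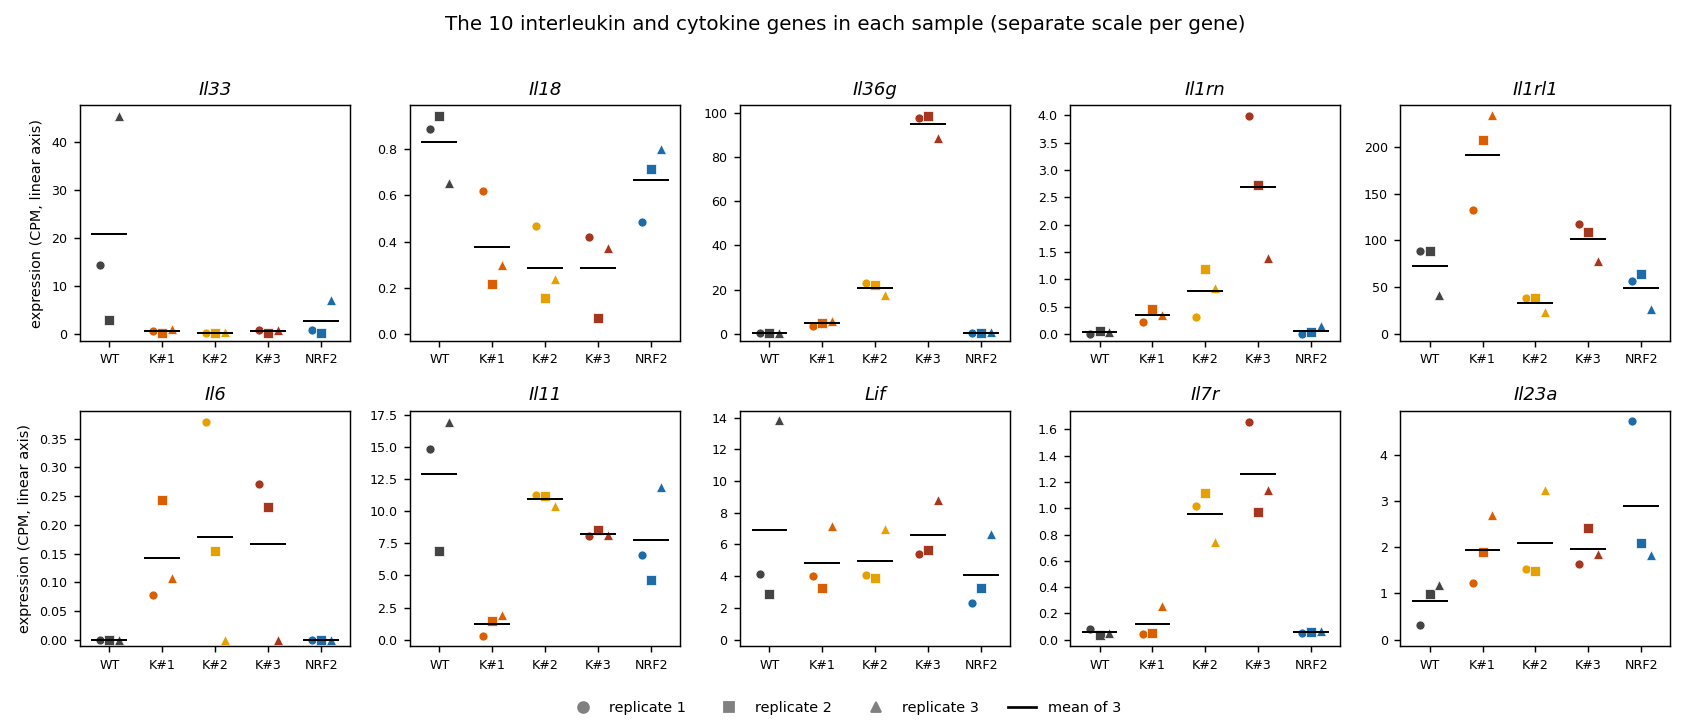
Expression of the 10 genes in CPM on a linear axis that differs between panels, by line (WT, LL2 WT; K#1 to K#3, the KEAP1 KO clones; NRF2, NRF2 KO). Each symbol is 1 sample (circle, square and triangle for replicates 1, 2 and 3) and the bar is the mean of the 3; *Il36g* climbs from under 1 CPM to between 88.7 and 98.3 CPM in KEAP1 KO #3, and *Il33* reaches 3 CPM only in the LL2 WT samples and in replicate 3 of NRF2 KO.

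*Il36g*, the epithelial IL-36 cytokine, was the gene of the set that rose furthest, and by a different amount in every *KEAP1* KO clone. The gene lies on chromosome 2 from 24186476 to 24193568 (plus strand, GRCm38), in the cluster of IL-1 family genes, and is listed under its older name *Il1f9* in the annotation used. Replicates 1, 2 and 3 of LL2 WT had 0.297, 0.352 and 0.468 CPM, and those of *NRF2* KO 0.485, 0.425 and 0.678 CPM. Values in *KEAP1* KO #1 were 3.55, 4.76 and 5.92 CPM, those in #2 were 22.8, 21.9 and 17.4 CPM, and those in #3 were 97.6, 98.3 and 88.7 CPM. The 3 clones did not overlap with one another or with the other lines, while LL2 WT and *NRF2* KO overlapped. The means were 0.373 ± 0.0875 (SD, n = 3), 4.74 ± 1.19, 20.7 ± 2.89, 94.9 ± 5.33 and 0.529 ± 0.133 CPM in LL2 WT, *KEAP1* KO #1, #2, #3 and *NRF2* KO.

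On the log2 scale *Il36g* was 3.34 higher than LL2 WT in *KEAP1* KO #1 (SE 0.215, adjusted p = 4.05e-07), 5.47 higher in #2 (adjusted p = 2.85e-09) and 7.67 higher in #3 (adjusted p = 1.26e-10). In *NRF2* KO the difference was 0.41 and did not pass (adjusted p = 0.526). Ranked by log2 fold change among the 14652 genes, it stood at place 79 from the top in *KEAP1* KO #1, 19 in #2 and 9 in #3. The clones also differed from each other: *KEAP1* KO #2 exceeded #1 by 2.12 (adjusted p = 6.12e-05), #3 exceeded #1 by 4.32 (adjusted p = 2.81e-07) and #3 exceeded #2 by 2.2 (adjusted p = 0.000127). Over all genes, 4.58%, 4.63% and 0.485% passed in these 3 comparisons of clones. Of the 31-base stretches in its transcripts, 13% also occur in other genes, so part of its reads cannot be placed on *Il36g* alone. The predicted gene *Gm15983* shared more of these stretches than any other gene did.

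*Il1rn*, which encodes the IL-1 receptor antagonist and lies 143 kb further along the same chromosome (24336853 to 24351494, plus strand), had the same order of lines at far lower levels. The LL2 WT samples had 0, 0.0609 and 0.0388 CPM and those of *NRF2* KO 0, 0.0423 and 0.146 CPM. Clone #1 had 0.227, 0.453 and 0.340 CPM, clone #2 had 0.304, 1.19 and 0.843 CPM, and clone #3 had 3.98, 2.72 and 1.38 CPM. Every one of the 9 *KEAP1* KO values exceeded the highest parental value. LL2 WT was under the floor of 0.1 CPM in all 3 samples, so the clone mean over that floor is given as a lower bound. It was 3.40-fold in *KEAP1* KO #1, 7.80-fold in #2 and 26.9-fold in #3, and it rests on the stated average depth. Limma's log2 fold changes were 1.72 in #1 (adjusted p = 0.0284), 2.59 in #2 (adjusted p = 0.00201) and 4.30 in #3 (adjusted p = 4.15e-05). *NRF2* KO did not pass (adjusted p = 0.914). Only *KEAP1* KO #3 and #1 differed past the threshold among the clones, by 2.58 on the log2 scale (adjusted p = 0.0057). Clone #1 lost its call without LL2 WT replicate 1 or 3 (adjusted p = 0.0909 and 0.0578) and without *KEAP1* KO #1 replicate 2 or 3 (adjusted p = 0.107 and 0.0664). The call in #1 was made under only 9 of 18 alternatives, with log2 fold changes between 0.37 and 3.37. Pseudocounts of 0.5 and 1 CPM, quantile normalization and the use of replicates 1 and 2 only were among those that lost it.

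*Il33*, the alarmin ligand of ST2, fell in all 3 *KEAP1* KO clones from a parental level that varied widely between samples. The gene lies on chromosome 19 from 29925114 to 29960718 (plus strand). LL2 WT had 14.3, 3.01 and 45.3 CPM in replicates 1, 2 and 3. Clone #1 had 0.656, 0.219 and 1.03 CPM, clone #2 had 0.191, 0.192 and 0.482 CPM, and clone #3 had 0.769, 0.238 and 0.906 CPM. *NRF2* KO had 0.880, 0.210 and 7.03 CPM. All 9 *KEAP1* KO samples were below the lowest LL2 WT sample, and *NRF2* KO overlapped with both. Against LL2 WT it fell in all 3, with log2 fold changes of -4.29 in *KEAP1* KO #1 (SE 1.07, adjusted p = 0.0123), -5.11 in #2 (adjusted p = 0.00308) and -4.25 in #3 (adjusted p = 0.00918). The *NRF2* KO value was -3.29 with the same SE and did not pass (adjusted p = 0.254).

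The spread of *Il33* among the LL2 WT samples moved its values. Without LL2 WT replicate 3, its highest sample, the log2 fold changes were -3.37, -4.19 and -3.33 in *KEAP1* KO #1, #2 and #3 and the call in #1 was lost (adjusted p = 0.0544), and without LL2 WT replicate 2, its lowest, they were -5.30, -6.12 and -5.26. The call in #1 was also lost without *KEAP1* KO #1 replicate 2 (-3.77, adjusted p = 0.0583). Fibroblast markers differed between the same lines: the 11 markers summed to between 319 and 585 CPM in LL2 WT and between 184 and 423 CPM in *NRF2* KO, against between 3.57 and 31 CPM in the *KEAP1* KO samples. Most of the LL2 WT sum was *Col3a1*, at 436 CPM against 12.4, 4.04 and 0.325 CPM in the 3 clones and 318 CPM in *NRF2* KO. Of the 7 markers tested, 1, 4 and 5 fell in clones #1, #2 and #3, and *Pdgfrb*, which fell in #2 and #3, rose in #1. *Postn* was at 0 in all LL2 WT samples. Whether this bears on *Il33* was not tested, and in bulk RNA fewer cells expressing a gene and less RNA per cell cannot be told apart.

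*Il1rl1*, which encodes the IL-33 receptor ST2 and its soluble form, had the first or second highest level per length of the 10 genes in every line, and its direction differed between the clones. It lies on chromosome 1 from 40429570 to 40465415 (plus strand), 136 bases before *Il18r1*. The LL2 WT samples had 88.8, 88.7 and 42.0 CPM. Clone #1 had 132, 207 and 234 CPM, all above LL2 WT. Clone #2 had 38.2, 38.0 and 23.6 CPM, all below LL2 WT. *KEAP1* KO #3 had 118, 109 and 78.3 CPM and *NRF2* KO had 56.5, 64.2 and 26.4 CPM, and both overlapped with LL2 WT.

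Against LL2 WT *Il1rl1* rose by 1.42 on the log2 scale in *KEAP1* KO #1 (SE 0.372, adjusted p = 0.015), and it fell by 1.09 in #2 (adjusted p = 0.0398). Values of 0.54 in #3 (adjusted p = 0.297) and, for *NRF2* KO, -0.59 (adjusted p = 0.614) did not pass. *KEAP1* KO #2 was 2.51 below #1 on the log2 scale (adjusted p = 0.00097), a difference that passed under all 19 alternatives run. *KEAP1* KO #3 was 1.62 above #2, which did not pass (adjusted p = 0.0801) but did with the replicate number as a block (adjusted p = 0.0122), and in this pair of lines the samples of the same number deviated together. Clone #1 lost its call without LL2 WT replicate 3 (1.07, adjusted p = 0.0639) and without *KEAP1* KO #1 replicate 2 or 3 (adjusted p = 0.0584 and 0.0576). That in #2 was lost without LL2 WT replicate 1 or 2 (-0.91 in both, adjusted p = 0.135 and 0.108) and without any one of the *KEAP1* KO #2 replicates (adjusted p = 0.0629, 0.0634 and 0.128 without replicates 1, 2 and 3).

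*Il18*, the caspase-1 substrate, was under 1 CPM in every sample. Its gene lies on chromosome 9 from 50554827 to 50581840 (plus strand). LL2 WT had 0.888, 0.946 and 0.655 CPM, clone #1 had 0.620, 0.215 and 0.301 CPM, clone #2 had 0.467, 0.154 and 0.237 CPM, clone #3 had 0.421, 0.0693 and 0.371 CPM, and *NRF2* KO had 0.487, 0.713 and 0.801 CPM. The 9 *KEAP1* KO samples were all below LL2 WT, and *NRF2* KO overlapped with it. Its log2 fold changes of -1.34 in *KEAP1* KO #2 (SE 0.473, adjusted p = 0.0465) and -1.41 in #3 (adjusted p = 0.0375) passed, and its value of -1.03 in #1 did not pass (adjusted p = 0.134). Both calls lay close to the threshold and were made under only 6 and 8 of 18 alternatives. Each was lost without any one of the LL2 WT replicates (adjusted p = 0.11, 0.0959 and 0.0636 in #2 and 0.0928, 0.0812 and 0.0519 in #3, without replicates 1, 2 and 3), that in #2 also without its own replicate 2 or 3 (adjusted p = 0.167 and 0.0941), and that in #3 without its own replicate 2 (adjusted p = 0.164).

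**Figure D2:**
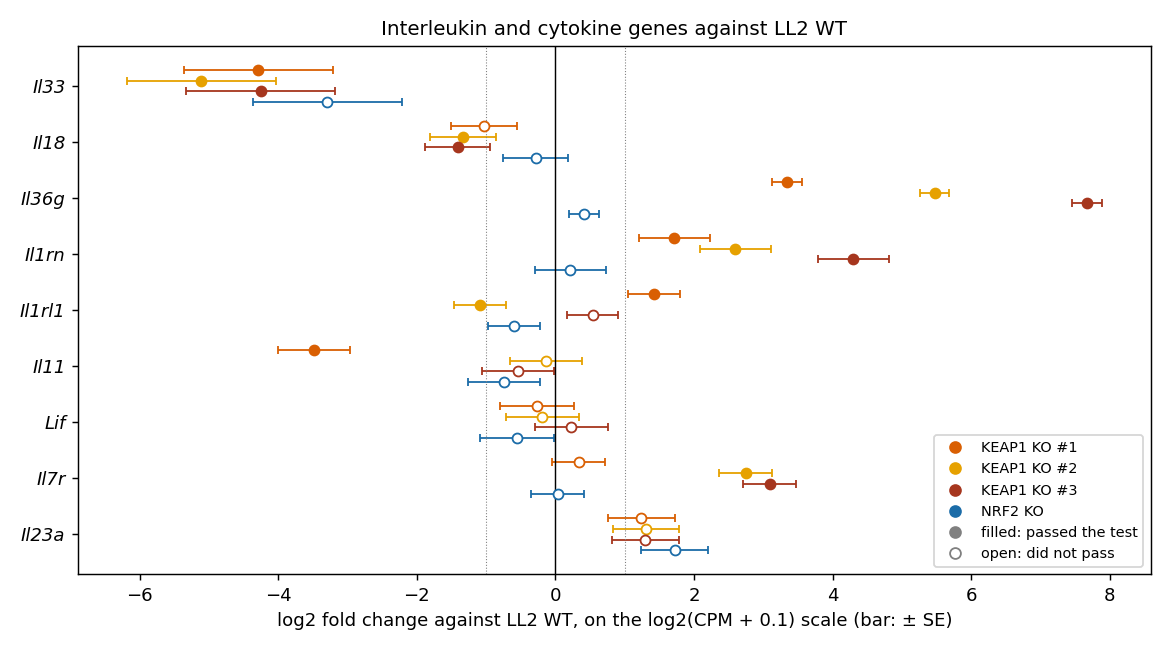
Log2 fold change against LL2 WT of the 9 genes tested, on the log2(CPM + 0.1) scale, with bars of 1 SE, by knockout line (colour). Filled points passed the test and open points did not; dotted lines stand at -1 and 1. *Il36g* spreads from 0.41 in NRF2 KO to 7.67 in KEAP1 KO #3, *Il1rl1* lies on both sides of 0, and *Il11* passed in KEAP1 KO #1 alone.

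Receptors of the IL-1 family were tested as a list of 11, 8 of which passed the filter, *Il1rl1* among them. In *KEAP1* KO #1 only *Il1rl1* rose and 0 fell, in *KEAP1* KO #2 0 rose and 3 fell (*Il1r1*, *Il1r2*, *Il1rl1*), in *KEAP1* KO #3 *Il18r1* rose and 3 fell (*Il1r1*, *Il1r2*, *Il1rap*), and in *NRF2* KO limma called 0. *Il1r1*, the signalling receptor that *Il1rn* blocks, had an LL2 WT mean of 89.9 CPM against 61.5, 41.2 and 37.6 CPM for the 3 clones, with log2 fold changes of -1.05 in #2 (adjusted p = 0.0136) and -1.19 in #3 (adjusted p = 0.00668). *Il1rap*, the accessory chain, had a mean of 6.98 CPM in the parental line against 3.45, 3.87 and 2.82 CPM in the clones. *Il1rl2*, the IL-36 receptor, averaged between 0.015 and 0.0707 CPM in the 5 lines, under the floor throughout and not tested, so its level could not be told from 0 at this depth in any line. *Il18rap* averaged between 55.0 and 82.0 CPM without passing in any line. *Il18r1*, its partner chain, averaged between 0.119 and 0.457 CPM, and the IL-18 binding protein gene *Il18bp* between 1.42 and 1.49 CPM. Of the ligands in the IL-1 family list, which held 10 genes of the table, only *Il1rn*, *Il18*, *Il33* and *Il36g*, all described above, passed the filter.

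Signalling and processing genes of the IL-1 family (26 listed, 20 tested) gave 1, 1, 2 and 0 higher in *KEAP1* KO #1, #2, #3 and *NRF2* KO. Their median log2 fold change was 0.13, 0.08, 0.16 and -0.05. *Casp1*, whose protein cuts pro-IL-18 and pro-IL-1β, rose in every clone, with means of 12.6, 5.05 and 9.46 CPM against 1.5 CPM in the parental line (log2 fold changes 3.03, 1.71 and 2.62, adjusted p = 1.59e-05, 0.000684 and 2.26e-05), while its 0.739 CPM in *NRF2* KO did not pass (adjusted p = 0.196). *Gsdmd*, whose product forms pores on cleavage, fell in #2 and #3, and *Nlrp3* rose in #3.

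*Il11*, an IL-6 family cytokine, fell in *KEAP1* KO #1 and passed in no other line. It lies on chromosome 7 from 4772373 to 4782859 (minus strand). LL2 WT had 14.8, 6.89 and 17.0 CPM. Clone #1 had 0.299, 1.45 and 1.94 CPM. Clone #2 had 11.3, 11.2 and 10.4 CPM, clone #3 had 8.05, 8.52 and 8.14 CPM, and *NRF2* KO had 6.63, 4.68 and 11.9 CPM. All *KEAP1* KO #1 samples were below every sample of the other 4 lines, and those 4 lines overlapped, except that *KEAP1* KO #3 lay below #2. It fell by 3.49 on the log2 scale in *KEAP1* KO #1 (SE 0.519, adjusted p = 0.000465), and its values of -0.13, -0.54 and -0.74 in #2, #3 and *NRF2* KO did not pass (adjusted p = 0.874, 0.459 and 0.665). *KEAP1* KO #2 exceeded #1 by 3.36 (adjusted p = 0.00129) and #3 exceeded #1 by 2.95 (adjusted p = 0.00293). Without *KEAP1* KO #1 replicate 1, its lowest sample, the 3 values were -2.77, 2.64 and 2.23 and all passed. Of the 31-base stretches of its transcripts, 5.15% also occur in other genes.

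*Lif*, the leukemia inhibitory factor gene (chromosome 11, 4257557 to 4272514, plus strand), passed in no comparison. LL2 WT had 4.13, 2.86 and 13.8 CPM, clone #1 had 4.02, 3.26 and 7.18 CPM, clone #2 had 4.08, 3.91 and 6.96 CPM, clone #3 had 5.38, 5.67 and 8.82 CPM, and *NRF2* KO had 2.3, 3.24 and 6.67 CPM. All lines overlapped, and replicate 3 was the highest in each. The log2 fold changes against LL2 WT were -0.26, -0.19, 0.23 and -0.56 (SE 0.532, adjusted p = 0.763, 0.822, 0.774 and 0.764).

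*Il6* (chromosome 5, 30013114 to 30019981, plus strand) was listed at 0 in all LL2 WT and all *NRF2* KO samples. Values in *KEAP1* KO #1 were 0.0774, 0.244 and 0.107 CPM, clone #2 had 0.379, 0.155 and 0 CPM, and clone #3 had 0.271, 0.230 and 0 CPM. Only 6 of the 15 samples were above the floor, all of them *KEAP1* KO, and the gene was not tested. With LL2 WT listed at 0 no fold is given.

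IL-6 family receptors were listed as 8 genes, 5 of them tested, and none rose in any line. *Osmr*, the oncostatin M receptor, fell in every clone, with means of 0.501, 0.129 and 0.146 CPM against 3.65 CPM in the parental line (log2 fold changes -2.22, -3.67 and -3.58, adjusted p = 0.0143, 0.000383 and 0.000447). Its LL2 WT samples ranged from 1.22 to 7.83 CPM, and the call in #1 was lost without *KEAP1* KO #1 replicate 2 (-2.03, adjusted p = 0.0606). *Il11ra1*, the receptor chain for IL-11, had a parental mean of 8.75 CPM against 3.73, 1.21 and 0.855 CPM in the clones and passed in #2 and #3, but 57.7% of its 31-base stretches occur in other genes, so its reads can be divided among copies. *Lifr*, the LIF receptor, fell in #2 and #3, to 0.082 and 0.0804 CPM from a parental mean of 0.361 CPM. *Il6st*, the chain common to the family, had a parental mean of 31.2 CPM against 18.9, 18.2 and 19.7 CPM in the clones, and its log2 fold changes of -0.71, -0.76 and -0.65 had adjusted p of 0.00299, 0.00126 and 0.00348 but did not reach the size threshold. *Il6ra*, the IL-6 receptor, lay above the parental samples in every sample of the 3 clones, with means of 12.6, 9.20 and 10.29 CPM against 7.41 CPM. On the log2 scale it was higher by 0.75 in #1 (adjusted p = 0.00195), 0.31 in #2 (adjusted p = 0.109) and 0.46 in #3 (adjusted p = 0.023), all under the size threshold. The 5 tested receptors had a median log2 fold change of -0.71, -1.42, -1.38 and -0.54 in *KEAP1* KO #1, #2, #3 and *NRF2* KO.

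The list of IL-6 family ligands (11 listed, 7 tested, *Il11* and *Lif* among them) gave 2, 1, 1 and 0 higher and 1, 0, 1 and 0 lower in the 4 lines. *Cntf* and *Ctf2* rose in *KEAP1* KO #1, *Clcf1* rose in #2 and #3, *Ctf1* fell in #3, and the lower gene in #1 was *Il11*. The JAK, STAT3 and feedback list (12 listed, all tested) gave 0, 1, 0 and 0 higher and 0, 2, 2 and 0 lower. The STAT-induced inhibitors *Socs3* and *Cish* fell in #2 and #3, and *Ptpn6* rose in #2. Mean *Cish* was 0.937 CPM in the parental line, 0.14 CPM in #2 and 0.188 CPM in #3 (adjusted p = 0.0104 and 0.016), and its call in #3 was lost without LL2 WT replicate 3 or *KEAP1* KO #3 replicate 2 (adjusted p = 0.0689 and 0.0757).

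*Il7r*, the receptor chain for IL-7 and TSLP, rose in *KEAP1* KO #2 and #3 and stayed near the floor elsewhere. It lies on chromosome 15 from 9505788 to 9530176 (minus strand). LL2 WT samples had 0.0810, 0.0372 and 0.0526 CPM, those of *NRF2* KO 0.0499, 0.0598 and 0.0686 CPM, all under the floor. Clone #1 had 0.0396, 0.0526 and 0.256 CPM, of which only replicate 3 was above the floor. Clone #2 had 1.02, 1.11 and 0.740 CPM and clone #3 had 1.66, 0.975 and 1.14 CPM. These 6 samples were above all 9 others. The clone mean over the floor, a lower bound for the rise at the stated average depth, was 9.58-fold in #2 and 12.6-fold in #3. Limma's log2 fold changes were 2.75 in #2 (adjusted p = 0.000165) and 3.09 in #3 (adjusted p = 5.79e-05). *KEAP1* KO #1 did not pass (log2 fold change of 0.33, adjusted p = 0.57), and #2 and #3 exceeded #1 by 2.41 and 2.76 on the log2 scale (adjusted p = 0.00154 and 0.000643).

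*Il7* itself, the cytokine that *Il7r* binds, rose in all 3 clones. Like *Il7r*, it passed the filter only through *KEAP1* KO samples. Its mean was 0.047 CPM in the parental line, 2.97, 12.0 and 13.6 CPM in clones #1, #2 and #3 and 0.112 CPM in *NRF2* KO, and the 3 clones passed (adjusted p = 1.11e-07, 2.41e-09 and 1.15e-09) while *NRF2* KO did not (adjusted p = 0.477). *Il7* overlaps the exons of *Gm16685* on the opposite strand. The common gamma chain *Il2rg*, with which IL-7 receptor alpha pairs, averaged at most 0.191 CPM in any line and was not tested. *Crlf2*, its partner for TSLP, averaged between 0.335 and 0.972 CPM without passing, and *Tslp* was at most 0.360 CPM in any sample. Of the 19 genes of the IL-7 and common gamma chain list, 10 were tested, with 1, 2, 2 and 0 higher (*Il7*, and *Il7r* in #2 and #3) and 0, 4, 1 and 0 lower (*Il15* in #2 and #3, *Il15ra*, *Jak3* and *Stat5a* in #2). Among the leukocyte markers, *S100a8* rose in all 3 clones, from 0.437 CPM to 4.68, 4.68 and 7.32 CPM. *Cd14* rose in #1 and #3, whereas *Il7r* rose in #2 and #3. The macrophage gene *Lyz2* fell in #2 and #3, and *Adgre1* and *Ncr1* stayed at 0. Their part in the *Il7r* result was not tested. Of 12 mast cell and ILC2 markers, cells known for ST2, only *Gata3* was tested, and it rose in #2 and #3. Its call in #2 was lost without LL2 WT replicate 1 or 2 (1.44 and 0.92, adjusted p = 0.0803 and 0.114) and without any one of its own replicates (adjusted p from 0.0606 to 0.0915). The markers *Cpa3*, *Mcpt1*, *Tpsb2*, *Fcer1a*, *Klrg1* and *Il13* were at 0 in all samples. The 7 endothelial markers summed to between 2.83 and 8.35 CPM with *Emcn* at 0, and *Cdh5* and *Vwf* rose in #2 and #3.

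*Il23a*, the p19 chain of IL-23, was higher than LL2 WT in every sample of all 4 knockout lines but passed in none. It lies on chromosome 10 from 128296139 to 128298752 (minus strand). LL2 WT had 0.308, 0.983 and 1.19 CPM. Clone #1 had 1.23, 1.89 and 2.70 CPM, clone #2 had 1.53, 1.48 and 3.24 CPM, clone #3 had 1.63, 2.41 and 1.85 CPM, and *NRF2* KO had 4.72, 2.09 and 1.84 CPM. The knockout lines overlapped with one another. The log2 fold changes were 1.24, 1.31, 1.3 and 1.72 (SE 0.482), with adjusted p of 0.0816, 0.0544, 0.0566 and 0.173. Without LL2 WT replicate 3 it passed in *KEAP1* KO #2 and #3 (1.62 in both, adjusted p = 0.0381 in each), and without LL2 WT replicate 2 in #2 (1.5, adjusted p = 0.0495). Without LL2 WT replicate 1, its lowest sample, the values in the 3 clones were 0.72, 0.80 and 0.79 (adjusted p = 0.297, 0.221 and 0.229). *Il12b*, the chain p19 pairs with, was listed at 0 in every sample but 2 of *KEAP1* KO #1 (0.0389 and 0.0198 CPM). *Il23r* averaged under 0.01 CPM in all lines. *Il12rb1*, the receptor chain shared by IL-12 and IL-23, rose in every clone, with means of 16.9, 26.0 and 23.7 CPM against 6.59 CPM in the parental line (log2 fold changes 1.34, 1.97 and 1.84, adjusted p = 1.05e-05, 1.53e-07 and 2.69e-07), and was at 5.71 CPM in *NRF2* KO.

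**Figure D3:**
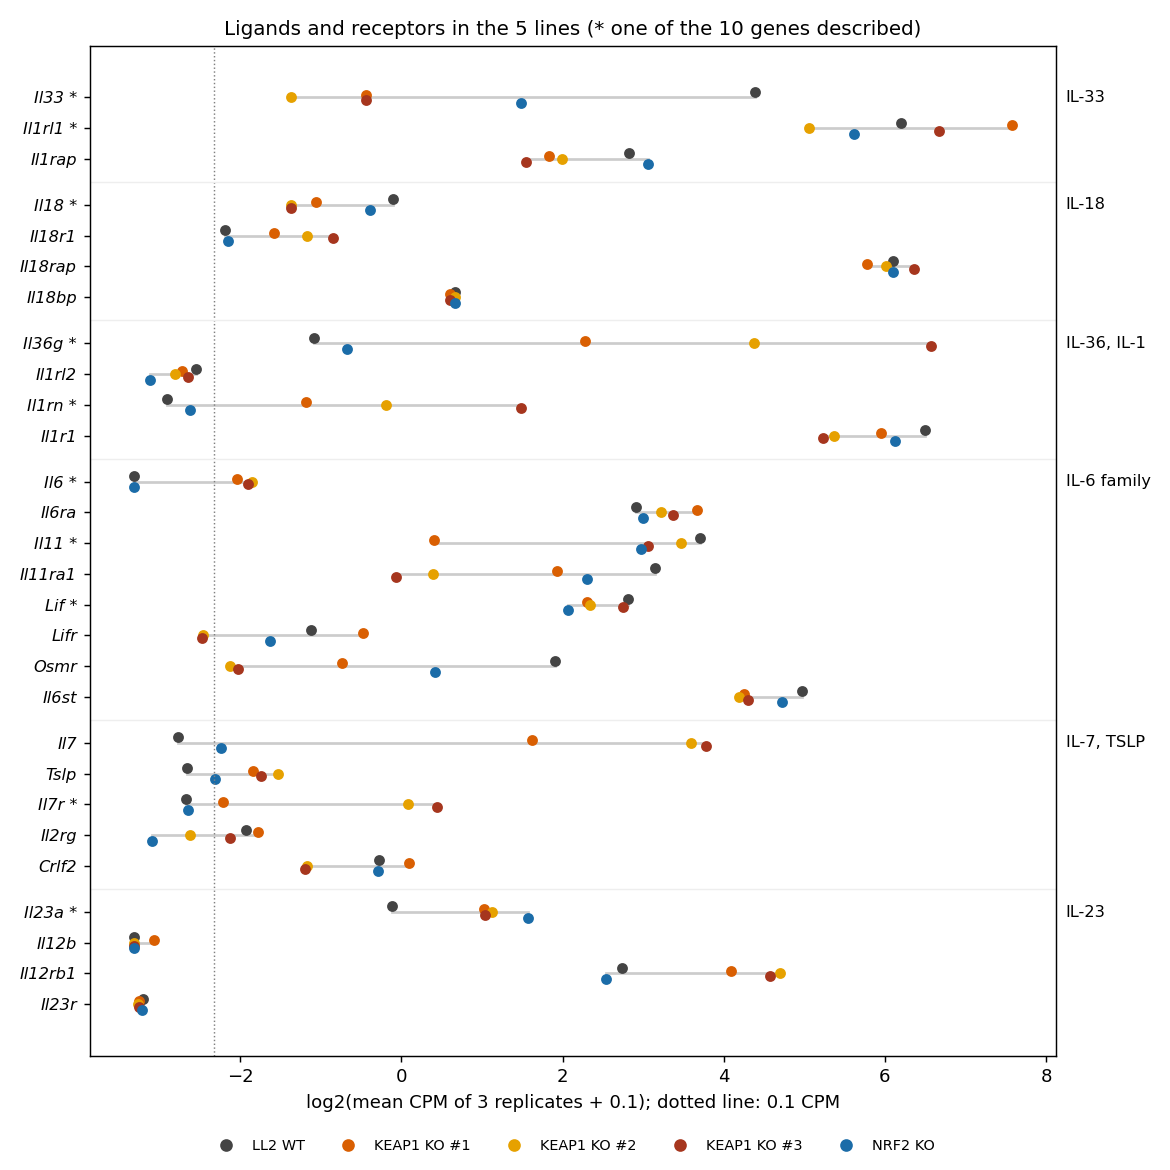
Mean expression of 3 replicates in each of the 5 lines (colour), as log2(CPM + 0.1), for the 10 genes (asterisk) and the ligands, receptors and binding proteins they work with, grouped by pathway. The dotted line stands at the floor of 0.1 CPM. *Il7* and *Il7r* lie furthest right in KEAP1 KO #2 and #3, and *Il1rl2*, *Il12b* and *Il23r* lie left of the floor in every line.

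Of the 9 tested genes, 7, 7, 6 and 1 did not overlap with LL2 WT in *KEAP1* KO #1, #2, #3 and *NRF2* KO, against 37.0%, 42.0%, 40.0% and 13.2% of all genes tested. All 9 *KEAP1* KO samples lay above every LL2 WT sample for *Il36g*, *Il1rn* and *Il23a*, as for 12.9% of all genes, and below for *Il33* and *Il18*, as for 7.69%. *Il36g* and *Il1rn* passed as higher in all 3 clones, as did 2.86% of all genes, and *Il33* as lower, as did 2.63%. Tested directly, the *KEAP1* KO clones together exceeded *NRF2* KO for *Il36g* (5.08 on the log2 scale, adjusted p = 3.40e-10), *Il1rn* (2.66, adjusted p = 0.000405) and *Il7r* (2.03, adjusted p = 0.000357), against 9.94% of all genes that passed in that comparison. Clone by clone, *Il1rn* and *Il7r* passed against *NRF2* KO in #2 and #3 but not in #1 (adjusted p = 0.0682 and 0.674), where *Il7r* overlapped with *NRF2* KO. Because *Il1rn* and *Il7r* passed the filter only through *KEAP1* KO samples, they could pass only as higher against LL2 WT or *NRF2* KO. *Il33* was -1.26 for the clones together against *NRF2* KO and did not pass (adjusted p = 0.331). A difference in *Il33* between *KEAP1* KO and *NRF2* KO was thus not shown. Its value was -0.03 without *NRF2* KO replicate 3 and -2.29 without replicate 2. *Il1rl1* had a difference of 0.89 (adjusted p = 0.0471), under the size threshold, and passed without *NRF2* KO replicate 2 (1.13, adjusted p = 0.0343).

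Levels between the genes were compared per kilobase of the longest coding transcript. In LL2 WT the order was *Il1rl1* (13.8 CPM per kb), *Il33* (8.2), *Il11* (6.62), *Lif* (1.72), *Il18* (0.938), *Il23a* (0.607), *Il36g* (0.226), *Il7r* (0.0161), *Il1rn* (0.0134) and *Il6* (0). In *KEAP1* KO #3 *Il36g* stood first at 57.6 CPM per kb, ahead of *Il1rl1* at 19.2 CPM per kb, and in *KEAP1* KO #2 it stood at 12.6 against 6.27 CPM per kb. In *KEAP1* KO #1 *Il1rl1* remained first at 36.0 CPM per kb, with *Il36g* at 2.88 CPM per kb.

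Replicate 3 differed from replicates 1 and 2 of the same line for several of the genes. *Il33* and *Lif* were highest in replicate 3 in all 5 lines, a pattern seen in 20.5% of all genes tested, and *Il1rl1* was lowest there in 4 lines, as were 17.2% of all genes in at least 4. With the line as the other term of the fit, replicate 3 exceeded replicates 1 and 2 by 1.91 on the log2 scale for *Il33* (adjusted p = 0.00765) and by 1.13 for *Lif* (adjusted p = 0.000339), and 4.31% of all genes passed. *Il1rl1* was at -0.60 (adjusted p = 0.0207), under the size threshold, and the other 6 genes had adjusted p from 0.122 to 0.931. For *Il33* the difference within a line was 2.77 in LL2 WT and 3.69 in *NRF2* KO, against 1.2, 1.00 and 0.89 in the 3 *KEAP1* KO clones. In replicates 1 and 2 alone, *Il33* had log2 fold changes against LL2 WT of -3.77, -4.52 and -3.62 in *KEAP1* KO #1, #2 and #3 and passed in each (adjusted p = 0.0171, 0.00504 and 0.0127), and at -3.60 in *NRF2* KO did not (adjusted p = 0.152). The labels do not say what replicate 3 shared across lines.

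**Figure D4:**
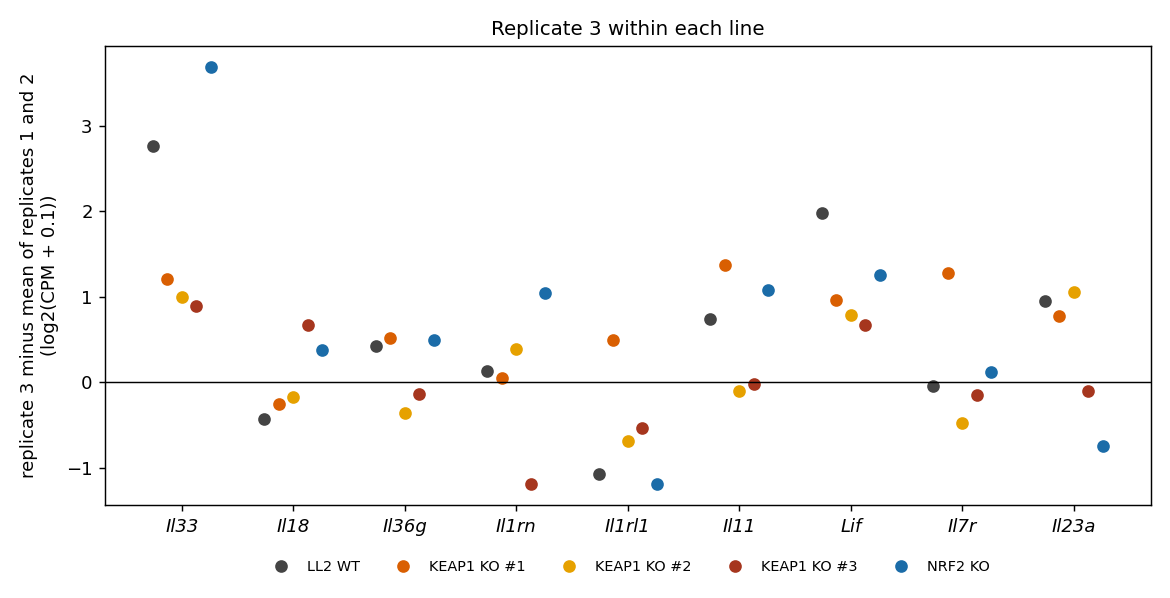
For each of the 9 genes tested, the log2(CPM + 0.1) value of replicate 3 minus the mean of replicates 1 and 2 of the same line (1 point per line, by colour). *Lif* and *Il33* lie above 0 in all 5 lines, with *Il33* at 2.77 in LL2 WT and 3.69 in NRF2 KO, and *Il1rl1* lies below 0 in every line but KEAP1 KO #1.

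For the 6 genes that averaged at least 1 CPM, the genes most like them were taken by Pearson's r of log2(CPM + 0.1) over the 15 samples among 11676 genes. The points share their 5 lines, so r is a description. *Il36g* was most like *Padi1* (r = 0.982), *Hspa4l* (0.978) and *Cstb* (0.977). *Padi1*, a peptidylarginine deiminase, averaged 0.055, 0.579, 1.76, 2.84 and 0.0906 CPM in LL2 WT, *KEAP1* KO #1, #2, #3 and *NRF2* KO. *Il33* was most like *Scara5* (0.965), *Spred1* (0.961) and *Enpp2* (0.951), and *Il11* was most like *Disp2* (0.946), *Sema7a* (0.932) and *Sema6d* (0.926). *Il1rl1* was most like *Lman2* (0.914), *Rbmx* (0.86) and *Ddah1* (0.858), *Lif* like *Tcp11l2* (0.955), *Alcam* (0.95) and *Arhgap21* (0.941), and *Il23a* like *Or8b44* (0.974), *Pde6a* (0.972) and *Tbata* (0.967).

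Of 12 listed markers of squamous epithelium, 3 were tested, *Sprr1b*, *Krt16* and *Sprr1a*, and *Sprr1a* passed in no line. The means of 8, 6 and 7 of the 12 were at or under the floor in clones #1, #2 and #3. *Sprr1b*, a cornified envelope gene, was listed at 0 in the parental samples, with means of 2.46, 19.8 and 14.9 CPM in clones #1, #2 and #3, and so was the keratin *Krt16*, with means of 0.394, 1.37 and 1.23 CPM. Both passed in all 3 clones and neither in *NRF2* KO. They passed the filter on low values only through the *KEAP1* KO samples, so against LL2 WT they could pass only as higher. Their means were highest in #2, whereas those of *Il36g* and *Il1rn* were highest in #3. The 12 listed markers summed to between 0.453 and 1.78 CPM in the parental samples, 2.22 and 6.35 CPM in clone #1, 10.17 and 30.7 CPM in #2, 10.8 and 23.2 CPM in #3 and 0.137 and 0.474 CPM in *NRF2* KO. The basal keratin *Krt5* was at 0 in all LL2 WT samples and *Krt6a* in all samples of every line. Their part in the *Il36g* and *Il1rn* results was not tested. Among 19 other interleukin genes, 4 were tested, and *Il24* rose in #2 and #3 to 0.50 and 0.696 CPM from 0.0331 CPM, while *Il17f* rose in #1. The *Il24* call in #2 was lost without any one LL2 WT replicate (adjusted p from 0.0603 to 0.104) and without its own replicate 1 or 2 (adjusted p = 0.0903 and 0.124), and that in #3 without LL2 WT replicate 3 or its own replicate 1 or 2 (adjusted p = 0.0689, 0.101 and 0.0677).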

How the data were processed

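RNA of 15 samples (5 lines, 3 replicates each) was sequenced as poly(A) mRNA. The authors deposited 1 table of CPM per gene, made by pseudo-alignment with Kallisto. The study's methods name GRCm38.p6 transcripts, whereas the submitters' processing notes name GRCm39 with bcl2fastq 1.9.0. Gene positions here are from the GRCm38 annotation. CPM summed to between 999412 and 999525 per sample, and between 17270 and 19750 genes were above 0. One entry without a symbol, 0.0214% to 0.0491% of the total, was left out of the tests. Whole reads could not be recovered (at best 12.4% of low values lay within 0.05 reads of a whole number), so no count model was used and depth per sample is unknown. Pseudo-alignment divides reads of near-identical copies between genes.

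Genes with a CPM sum of at least 3 over the 15 samples were kept, and log2(CPM + 0.1) was fitted with limma 3.58.1 in R 4.3.3 (a mean per line over all 15 samples, eBayes with a trend) and adjusted by Benjamini-Hochberg in each comparison. The fit was tested on simulated data. The 10 genes and the related lists were chosen with earlier results of these data known. All 10 genes were named, with their receptors, genes of the related lists that passed in all 3 *KEAP1* KO clones, the largest change of each list, and the 3 genes most like each. Other genes of a list were named after their values were seen, where 5 or fewer had passed. The comparison of replicate 3 with replicates 1 and 2, and the fit to replicates 1 and 2 only, were also chosen after seeing the data. Alternatives changed the pseudocount, filter, scaling, variance model, samples and replicate terms. Of 10 pairs of lines, the same-numbered samples deviated together (r over 0.1 for every number) in 2, *KEAP1* KO #3 with #2 and with *NRF2* KO. One result for a gene of the IL-1 signalling and processing list is not reported here.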

Additional observations from a re-analysis of the deposited data

Results flagged for a closer look

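Differences between lines in the change from LL2 WT, which cancels in these contrasts, passed limma's test for *Il36g*, *Il1rn*, *Il7r*, *Il11* and *Il1rl1*. The *KEAP1* KO clones together exceeded *NRF2* KO on the log2 scale by 5.08 for *Il36g*, 2.66 for *Il1rn* and 2.03 for *Il7r*. Of these, *Il1rn* and *Il7r* passed the filter on low values only through *KEAP1* KO samples. *KEAP1* KO #2 exceeded #1 by 2.12 for *Il36g*, 3.36 for *Il11* and 2.41 for *Il7r*, and for *Il1rl1* the value was -2.51. *KEAP1* KO #3 exceeded #1 by 4.32 for *Il36g*, 2.58 for *Il1rn*, 2.95 for *Il11* and 2.76 for *Il7r*. *KEAP1* KO #3 exceeded #2 by 2.2 for *Il36g*. Each line is 1 clone, so these are differences between clones.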

How the results depend on the processing

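The count of 9 calls between pairs of *KEAP1* KO clones lay between 6 and 10. *Il7r* in #2 against #1 lost its call with a pseudocount of 1 CPM (0.81), where #3 against #1 was 1.011 for *Il7r* and 1.40 for *Il1rn*, and *Il1rn* in #3 against #1 lost its call with 0.01 CPM (2.88, adjusted p = 0.0797). In *KEAP1* KO #1 the 5 calls became 3 with replicates 1 and 2 only and between 2 and 5 with 1 replicate left out. In #2 the 6 calls became 3 with a pseudocount of 1 CPM and 3 with a mean of at least 1 CPM, and in #3 the 5 became 2 with that mean, a filter that removes low genes. The 3 calls of the clones together against *NRF2* KO became 1 under either. With the replicate number as a block, *NRF2* KO had 1 call (*Il33*, adjusted p = 0.0142), as with replicate 3 as a batch (1, adjusted p = 0.0364), and *Il23a* passed in #2 and #3 (adjusted p = 0.0367 and 0.0381). LL2 WT shares only replicate numbers with the other lines, and 11 of 15 samples correlated best with their own number.

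Values that changed sign had not passed. With replicates 1 and 2 only, *Il1rn* in *NRF2* KO was -0.0887, *Il11* in #2 0.15, *Lif* in #1 and #2 0.0723 and 0.21, and *Il7r* in #1 and *NRF2* KO -0.11 and -0.0256, and quantile normalization put *Il7r* at -0.0797 and -0.11 there. With 1 replicate left out, *Il1rn* in *NRF2* KO lay between -0.13 and 0.52, *Il11* in #2 between -0.53 and 0.12, *Lif* between -0.72 and 0.40 in #1, -0.65 and 0.47 in #2, -0.23 and 0.89 in #3 and -1.02 and 0.0993 in *NRF2* KO, *Il7r* between -0.0954 and 0.58 in #1 and -0.0615 and 0.14 in *NRF2* KO, and *Gata3* in *NRF2* KO between -0.26 and 0.85. Over all genes, the 1251, 2006, 1967 and 68 calls became 784, 1275, 1303 and 44 with a pseudocount of 1 CPM, and the 68 in *NRF2* KO became 179 with the block, 173 with the batch, 43 with replicates 1 and 2 only, 38 with a mean of at least 1 CPM and 7 with only the lines compared. Genes near 0.1 CPM are limited by an unknown depth.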
